A study of Mus musculus with 34 samples.

Results

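Lactate and pyruvate handling in heart muscle was followed through 6 genes: Ldha and Ldhb, which encode the subunits of lactate dehydrogenase, Slc16a1, Mpc1, Mpc2 and Pdha1. They were found through the RefSeq accession that each array probe carries, which gave 11 probes of 41174 on the array and 6 genes of the 19798 tested. Ldhb was chosen on its rise after exposure in these same data, measured as its log2 ratio in carbon black against control hearts. Its exposure differences are therefore given here as a description, and tests are given for the other 5 genes and for comparisons that did not pick it.

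Hearts came from female C57BL/6 mice bought at 5 to 6 weeks of age. Exposed mice were given Printex 90, a carbon black powder of nanoparticles, at 162 µg in a single 40 µl intratracheal instillation followed by 150 µl of air, and hearts were taken after 1 day (6 arrays), 3 days (5 arrays) or 28 days (5 arrays). Control mice received the vehicle alone, with 6 arrays at each of the 3 times. The vehicle of both arms was 0.9% NaCl with 10% by volume of cell-free lavage fluid from other C57BL/6 mice, so the controls carry the effects of instillation and of that fluid. Each array held the RNA of 1 mouse, taken from a random section of heart that included both ventricles, labelled with Cy5 and set against a purchased pooled mouse reference RNA labelled with Cy3. A log2 ratio is the heart signal over the reference signal on that array, after loess scaling. It is no absolute level, and it cannot be used to rank the abundance of different genes.

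Lactate dehydrogenase is a tetramer built from subunits encoded by Ldha and Ldhb. It interconverts pyruvate and lactate, and the subunit encoded by Ldhb predominates in heart, an organ that takes up lactate from blood and oxidises it. Slc16a1 encodes MCT1, a proton-coupled transporter that carries lactate and pyruvate across the plasma membrane. Mpc1 and Mpc2 encode the subunits of the mitochondrial pyruvate carrier, and Pdha1 encodes the E1 alpha subunit of pyruvate dehydrogenase, which commits pyruvate to acetyl-CoA.

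Promoter windows are shown for the subunit pair and for the transporter, since these genes carry the main contrasts below. All 6 genes matched the RefSeq promoter table (assembly GRCm38.p6) in 8 windows, each from 250 bases before to 50 bases after an annotated start. Capitals mark ACGTG on either strand, a form of the core of the element bound by hypoxia-inducible factors. Other forms of that core were not searched or marked, so a window without capitals may still hold the element.
Ldhb, chr6:142507908-142508207, minus strand: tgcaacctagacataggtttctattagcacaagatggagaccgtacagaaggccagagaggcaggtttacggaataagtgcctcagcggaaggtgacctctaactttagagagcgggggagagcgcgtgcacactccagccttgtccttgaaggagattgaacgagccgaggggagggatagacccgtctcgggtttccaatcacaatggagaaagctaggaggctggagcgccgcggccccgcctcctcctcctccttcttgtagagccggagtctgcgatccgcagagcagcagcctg
Ldha, chr7:46845554-46845853, plus strand: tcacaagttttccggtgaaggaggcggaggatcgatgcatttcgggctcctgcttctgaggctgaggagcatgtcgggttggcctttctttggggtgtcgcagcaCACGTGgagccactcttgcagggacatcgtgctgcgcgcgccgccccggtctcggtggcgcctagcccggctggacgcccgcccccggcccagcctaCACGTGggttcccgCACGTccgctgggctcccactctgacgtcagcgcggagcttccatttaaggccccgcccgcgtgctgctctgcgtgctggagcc
Slc16a1, chr3:104638414-104638713, plus strand: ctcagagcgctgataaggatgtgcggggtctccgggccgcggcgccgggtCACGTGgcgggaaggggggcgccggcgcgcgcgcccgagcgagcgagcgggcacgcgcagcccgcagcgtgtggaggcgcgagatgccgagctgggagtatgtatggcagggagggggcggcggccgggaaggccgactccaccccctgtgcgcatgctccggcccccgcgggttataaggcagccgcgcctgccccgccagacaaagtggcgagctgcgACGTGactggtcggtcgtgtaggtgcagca
The Ldha window held 5 matches to ACGTG counting both strands, of which 4 are the overlapping pairs within 2 copies of CACGTG. The Slc16a1 window held 3, including 1 such pair, and the windows of Ldhb, Mpc1, Mpc2 and Pdha1 held 0, as did the other Ldha window. These letters occur in 19.6% of the 32851 windows in the table. The GC box GGGCGG had 3 matches in the Ldha window shown, 1 in that of Slc16a1, 1 in each Mpc1 window and 2 in that of Mpc2, and occurs in 35.7% of all windows. AAGGTCA, a nuclear receptor half-site, had 0 matches in all 8 windows and occurs in 4.72% of all windows. A match to such letters is a description of the sequence and no evidence of binding.

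Across the 34 arrays, the heart channel stood well above background at 42.8% to 66.6% of an array's spots. All 6 genes passed the filter on dim probes, and the probe used for each was well above background on all 34 arrays. Tissue identity was checked with 8 ventricular cardiomyocyte markers, which were above background on all 34 arrays, with control heart ratios from 1.68 for the calcium release channel gene Ryr2 to 6.90 for Pln. Carbon black and control arrays were unevenly placed on the 4-array slides: places 1 to 4 held 2, 2, 2 and 10 carbon black arrays, against 12, 3, 3 and 0 control arrays. Atrial markers were low on 5 arrays. In the carbon black arm these were replicate 6 of day 1 and replicate 2 of day 3, and in the control arm replicate 2 of day 1, replicate 4 of day 3 and replicate 2 of day 28. Liver markers were high on arrays of both arms. A score is the mean over markers of the deviation from each marker's median over the arrays. Liver scores were 2.51 to 3.83 on control day 3 replicates 4, 5 and 6, and 2.25 and 2.67 on carbon black day 3 replicates 1 and 3. They were uneven between arms at day 1, with means of 1.485 in control and 0.006 in carbon black hearts. Those means were 1.59 and 1.21 at day 3, and -0.32 and -0.15 at day 28. Airway markers were high on control day 3 replicates 1, 5 and 6, with scores of 4.10, 2.29 and 2.74, against at most 1.12 on any carbon black array.

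In vehicle-treated hearts, 5 of the 6 genes were higher than in the pooled reference and Ldha was lower. Averaged over the 3 control groups, Ldhb had a log2 ratio of 3.73 ± 0.16 (SE), or 13.3-fold over the reference. Ldha had a log2 ratio of -0.95 ± 0.11, or 0.519-fold. The subunit genes of lactate dehydrogenase thus lay on opposite sides of the reference in all 18 control hearts but 1, control day 3 replicate 6, in which Ldha was at 0.17. The mitochondrial genes were all higher than the reference, Mpc1 by 3.15 ± 0.08, Mpc2 by 2.66 ± 0.08 and Pdha1 by 2.45 ± 0.11. Slc16a1 was higher by 1.02 ± 0.09. All 6 passed the limma test against a ratio of 0, with Benjamini-Hochberg adjusted p between 2.4e-26 for Mpc1 and 4.4e-09 for Ldha. In this comparison 83.9% of all genes tested passed, 46% higher and 37.9% lower, so a call is common here, and the sizes carry more than the calls. In control hearts 98.7% of the genes tested had a lower ratio than Ldhb, and 10.4% had a lower ratio than Ldha. With median centring in place of loess, the control ratio of Slc16a1 was 0.06 (adjusted p = 0.714). Dyes were not swapped, so an effect of dye cannot be told apart from one of RNA source in any ratio against the reference.

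**Figure D1:**
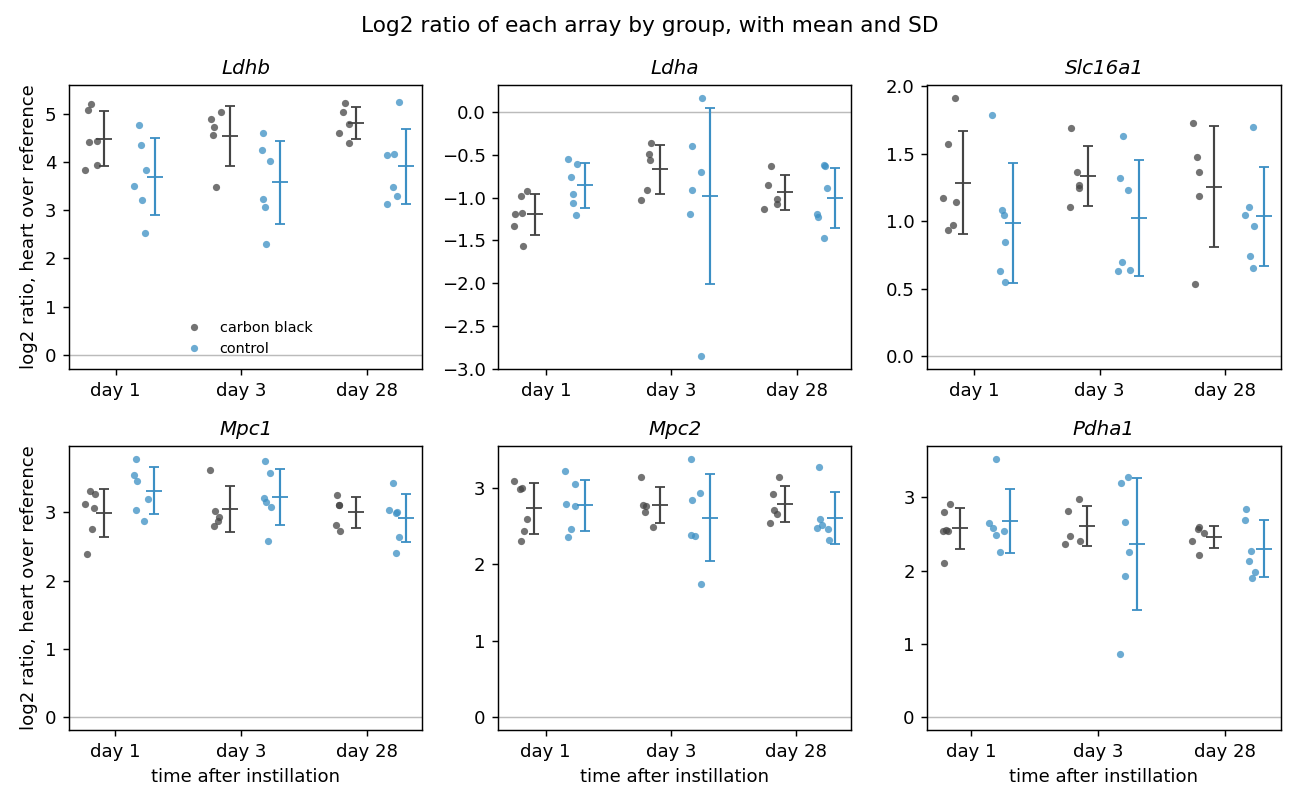
Log2 ratio of heart over reference (vertical axis) on each of the 34 arrays for the 6 genes, by day and arm, with carbon black in grey to the left of control in blue; bars give mean and SD. The Ldhb means of the carbon black groups lie above the control means at all 3 days, with overlapping points, and in the other 5 panels the arms also overlap at each day. The vertical scales differ between panels.

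Ldhb was higher in carbon black hearts than in control hearts at each time, though at day 3 by much less once 3 control hearts of high airway marker score were left out. One day after instillation, its log2 ratio ran from 3.84 to 5.21 with a median of 4.42 in 6 carbon black hearts, against 2.53 to 4.76 with a median of 3.67 in 6 control hearts. At day 3 the 5 carbon black hearts had 4.72, 5.04, 4.56, 3.48 and 4.90, against 2.30 to 4.61 with a median of 3.62 in 6 control hearts. At day 28 the 5 carbon black hearts had 4.40, 4.79, 5.23, 5.05 and 4.61, against 3.13 to 5.24 with a median of 3.81 in 6 control hearts. The groups overlapped at all 3 times, since some control hearts reached the carbon black values and carbon black day 3 replicate 4 lay among the controls. At day 3, control replicates 1, 5 and 6, those of high airway score, had 3.07, 3.22 and 2.30, below control replicates 2, 3 and 4 at 4.25, 4.61 and 4.02. Over all times, 15 of 16 carbon black hearts were above the control median, and 7 of 18 control hearts were below the lowest carbon black heart.

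The group means of Ldhb were 4.49 ± 0.57 in carbon black hearts and 3.70 ± 0.80 in control hearts at day 1 (SD, n = 6 each). At day 3 they were 4.54 ± 0.62 (SD, n = 5) in carbon black hearts and 3.58 ± 0.86 (SD, n = 6) in control hearts. At day 28 they were 4.82 ± 0.33 (SD, n = 5) in carbon black hearts and 3.91 ± 0.78 (SD, n = 6) in control hearts. The spread was thus narrower in the carbon black arm at each time, with an SD over all times of 0.51 in 16 carbon black hearts and 0.78 in 18 control hearts. The fitted differences were 0.79 ± 0.38 (SE) at day 1, 0.96 ± 0.40 at day 3 and 0.91 ± 0.40 at day 28, and their mean was 0.88 ± 0.23, or 1.85-fold. Without the 3 control arrays of high airway score, the difference was 0.25 ± 0.44 at day 3 and 0.65 ± 0.22 over all days. No test is attached to these differences. For background, the all-days comparison called 1.95% of genes (386 of 19798) at an adjusted p under 0.05, 1.33% higher (263 genes) and 0.621% lower (123 genes). The difference between the 3 daily effects was a comparison that did not pick the gene, and it did not pass (moderated F test in limma, adjusted p = 0.9999). In that comparison 0% of genes passed.

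Channel signals were rebuilt from each spot's loess-scaled ratio and mean intensity. Such signals share a loess shift between both channels, so they cannot settle which channel carried the Ldhb difference. The rebuilt log2 heart signal of Ldhb averaged 16.35 in carbon black hearts and 15.27 in control hearts. That was a difference of 1.1 averaged over the days, against a median difference of 0.27 over all genes in the same channel. In the reference channel, which holds the same RNA on all arrays, the Ldhb difference was 0.21 against a median of 0.27. The difference in log2 ratio kept its sign under all 13 other settings, from 0.36 with Agilent's processed signals to 1.30 with median centring, a scaling that moved the median of all genes by 0.19. With place on the slide as a block it was 0.68 ± 0.32. Leaving out each of the 34 arrays in turn gave 0.80 to 0.97.

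Within slides that held both arms, Ldhb was higher in the carbon black heart on 7 of 10, by -0.54 to 1.91 with a median of 1.05, taking controls of the same day. On all 10 of these slides the carbon black heart was at place 4 and its control of the same day at place 1. Exposure and place cannot be told apart in these differences. By scan day, the carbon black mean was higher on 6 of 7, with differences from -0.18 to 1.78 that are not matched for time. At place 4, the 10 carbon black hearts averaged 4.61 ± 0.58 (SD) and no control was hybridised. At place 1, the 2 carbon black hearts had 3.84 and 4.41, against 2.30 to 4.76 in 12 control hearts. At place 2, the 2 carbon black hearts had 4.90 and 5.04, above 3 control hearts at 3.23 to 4.25. At place 3, the 2 carbon black hearts had 4.61 and 4.79, within the range of 3 control hearts at 4.17 to 5.24.

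**Figure D2:**
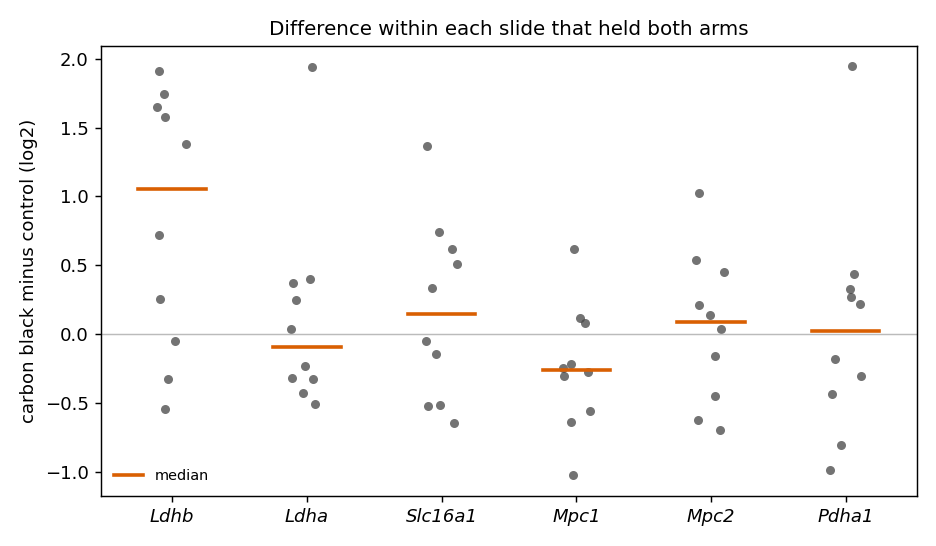
Carbon black minus control in log2 ratio (vertical axis) within each of the 10 slides that held both arms, for the 6 genes; each point is 1 slide with controls of the same day, and the bar is the median. Ldhb lies above 0 on 7 of 10 slides and Mpc1 below 0 on 7 of 10, while the other 4 genes split 5 to 5 or 6 to 4. Each carbon black heart was at place 4 of its slide and its control at place 1.

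Ldha, the subunit gene that predominates in skeletal muscle and in glycolytic cells, showed no such shift with the brightest of its probes. Its log2 ratio at day 1 ran from -1.57 to -0.92 with a median of -1.18 in carbon black hearts, against -1.21 to -0.55 with a median of -0.86 in control hearts. At day 3 the carbon black hearts had -0.91, -0.55, -1.02, -0.36 and -0.49, against -2.85 to 0.17 with a median of -0.80 in control hearts. At day 28 the carbon black hearts had -1.07, -1.01, -0.63, -0.85 and -1.13, against -1.48 to -0.61 with a median of -1.04 in control hearts. With this probe the arms overlapped at each time. The fitted difference over all days was 0.01 ± 0.17 (95% interval -0.33 to 0.35, limma adjusted p = 0.982), and those at days 1, 3 and 28 were -0.34, 0.31 and 0.06, none past the threshold. The day 3 value rests on control day 3 replicate 1 at -2.85: without it the difference was -0.06 at day 3 and -0.11 over all days. That array also had the highest airway marker score of all 34, at 4.10, and without the 3 control arrays of high airway score the difference was -0.00067 at day 3 and -0.092 over all days; the part of airway tissue was not tested. On the same array the other Ldha probe read -0.63. That other probe gave -0.21 ± 0.09 over all days (adjusted p = 0.215). Its arms did not overlap at day 1, with 6 carbon black hearts at -1.50 to -1.08 below 6 control hearts at -1.07 to -0.63. At that day 0.369% of all genes tested had no overlap with the probe used.

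Set against Ldha on the same array, Ldhb was on average higher relative to the reference in carbon black hearts at each time, with limits at day 3 given below. Ldhb minus Ldha averaged 5.68 ± 0.64 in carbon black hearts and 4.56 ± 0.66 in control hearts at day 1 (SD, n = 6 each). At day 3 the 5 carbon black hearts had 5.64, 5.59, 5.58, 3.83 and 5.39 (mean 5.21), against 2.14 to 5.92 with a median of 4.79 (mean 4.56) in 6 control hearts. Control replicates 1, 5 and 6 of day 3, those of high airway score, had 5.92, 4.41 and 2.14, and replicates 2, 3 and 4 had 5.158, 5.305 and 4.412. The value of 5.92 came with the Ldha reading of -2.85, where the other Ldha probe read -0.63. At day 28 the 5 carbon black hearts had 5.47, 5.80, 5.86, 5.89 and 5.74, against 3.90 to 5.87 with a median of 4.86 in 6 control hearts. Over all times the mean was 5.56 ± 0.60 (SD, n = 16) in carbon black hearts and 4.68 ± 0.93 (SD, n = 18) in control hearts. The arms overlapped at each time, and no test is given, because the Ldhb values that chose the gene enter this difference. Array by array, the deviations of Ldhb and Ldha from their group means had a correlation of 0.10 over the 34 arrays, the lowest among the 15 pairs of the 6 genes. That correlation includes control day 3 replicate 1, whose weight in it was not tested.

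**Figure D3:**
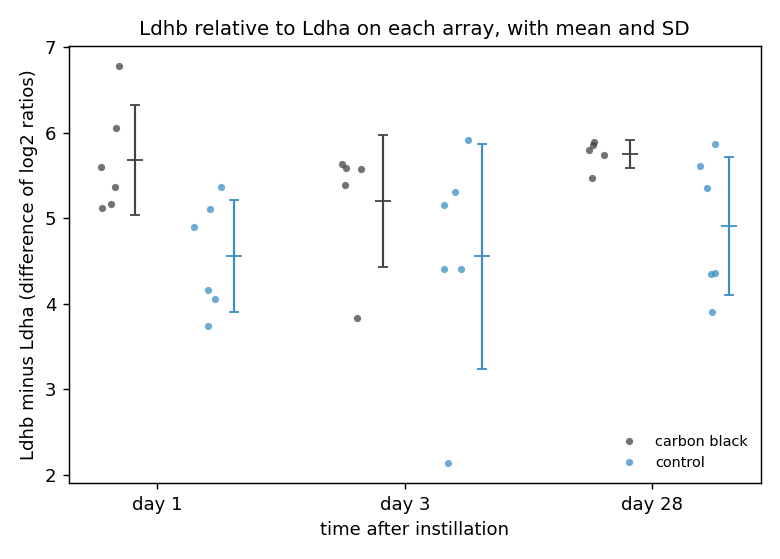
Ldhb minus Ldha, as a difference of log2 ratios (vertical axis), on each array by day and arm, with carbon black in grey to the left of control in blue and bars for mean and SD. At day 28 the 5 carbon black hearts sit between 5.47 and 5.89, and the 6 control hearts spread from 3.90 to 5.87.

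For Slc16a1, the lactate and pyruvate transporter gene, the result depended on the probe. With the brightest of its 3 probes, the day 1 ratio ran from 0.94 to 1.91 with a median of 1.16 in carbon black hearts, against 0.55 to 1.79 with a median of 0.95 in control hearts. At day 3 the carbon black hearts had 1.37, 1.69, 1.27, 1.11 and 1.25, against 0.63 to 1.63 with a median of 0.96 in control hearts. At day 28 the carbon black hearts had 0.53, 1.19, 1.73, 1.47 and 1.36, against 0.65 to 1.70 with a median of 1.00 in control hearts. Most carbon black hearts lay in the upper part of the control range, and 13 of 16 were above the control median. The fitted difference over all days was 0.28 ± 0.13 (1.21-fold, limma adjusted p = 0.253) and did not pass, nor did those of 0.29, 0.31 and 0.22 at days 1, 3 and 28. The lowest carbon black value, day 28 replicate 1, came from a dim spot, at a log2 heart signal of 7.24 against a mean of 13.03 in the arm. A ratio of 0.53 at that signal means that the spot was dim in the reference channel too. On the same array probe A_51_P397363 of this gene read 0.82 at a log2 heart signal of 11.59.

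Another Slc16a1 probe, A_51_P397363, gave a larger difference that passed. Its ratio averaged 1.21 ± 0.28 (SD, n = 16) in carbon black hearts and 0.56 ± 0.60 (SD, n = 18) in control hearts. All 16 carbon black hearts were above the control median, and 15 of 18 control hearts were below the lowest carbon black heart at 0.81. Put in place of the brightest probe, it gave 0.65 ± 0.16 over all days (limma adjusted p = 0.0421). It did not pass with slide, scan day or place on the slide as a fixed block (0.60 to 0.67, adjusted p between 0.0787 and 0.564), without the 3 control arrays of high airway score (0.53 ± 0.16, adjusted p = 0.155) or without the 3 of high liver score (0.71 ± 0.18, adjusted p = 0.117). The third probe, A_52_P245119, gave 0.22 ± 0.11 (adjusted p = 0.266) and was dim, with mean log2 heart signals between 6.98 and 7.64 in the 6 groups. All 3 probes thus had a positive difference, and whether the gene passed differed between them. Median centring took the brightest probe to 0.69 (adjusted p = 0.0453).

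**Figure D4:**
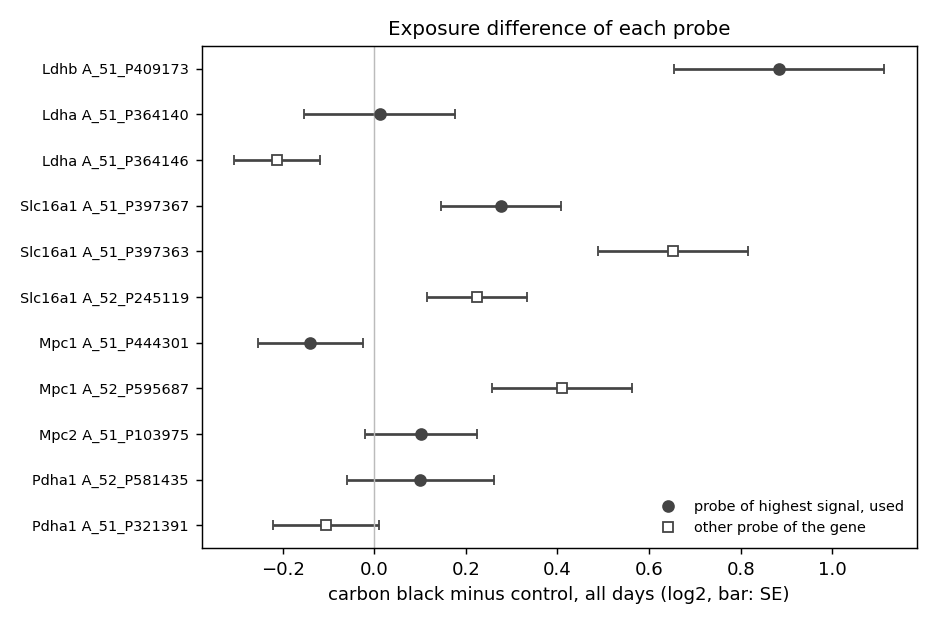
Carbon black minus control over all days in log2 ratio (horizontal axis, bars are SE) for each of the 11 probes; filled circles mark the brightest probe of a gene, which was used, and open squares the others. The 3 Slc16a1 probes lie at 0.22 to 0.65, whereas the probe pairs of Mpc1, Ldha and Pdha1 fall on opposite sides of 0.

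The mitochondrial pyruvate carrier showed no difference that passed the test. Mpc1 averaged 2.99 ± 0.35 in carbon black hearts and 3.32 ± 0.34 in control hearts at day 1 (SD, n = 6 each), with all 6 carbon black hearts below the control mean. At day 3 its carbon black values were 2.93, 3.62, 2.80, 3.02 and 2.88, against 2.58 to 3.76 with a median of 3.18 in control hearts. At day 28 they were 2.72, 2.81, 3.26, 3.11 and 3.11, against 2.40 to 3.43 with a median of 3.00 in control hearts. The arms overlapped at all times and the difference over all days was -0.14 ± 0.12 (95% interval -0.37 to 0.10, limma adjusted p = 0.571). The other Mpc1 probe, A_52_P595687, went the other way, by 0.41 ± 0.15 (adjusted p = 0.135), so no direction can be given for this gene. Mpc2, the partner subunit, is measured by a single probe and differed by 0.10 ± 0.12 over all days (95% interval -0.15 to 0.35, limma adjusted p = 0.729). Its day 3 ratios were 2.77, 3.14, 2.49, 2.68 and 2.78 in carbon black hearts, against 1.74 to 3.38 with a median of 2.61 in control hearts.

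Pdha1 also stayed within the spread of the controls. Its ratio averaged 2.55 ± 0.24 (SD, n = 16) in carbon black hearts and 2.45 ± 0.61 (SD, n = 18) in control hearts. The difference over all days was 0.10 ± 0.16 (95% interval -0.22 to 0.43, limma adjusted p = 0.807), and the other Pdha1 probe gave -0.11 ± 0.12. The control day 3 group held both a low array, replicate 1 at 0.86, the array of highest airway score, and high ones, replicates 4 and 6 at 3.28 and 3.19. In the carbon black day 3 group all 5 arrays lay between 2.37 and 2.97. With loess scaling, effects above about 0.35 for Ldha and Mpc2 and 0.43 for Pdha1 lie outside the 95% intervals, while smaller ones could not be resolved. These bounds depend on the scaling. Median centring, which moved the median of all genes by 0.19, gave 0.47 for Ldha, 0.50 for Mpc2 and 0.47 for Pdha1. These values lie beyond the bounds, though none of these 3 genes passed in that setting.

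With the probes used, none of the 5 genes other than Ldhb had an unadjusted p under 0.05 at any single day, and none of these 5 passed after adjustment. With probe A_51_P397363, Slc16a1 differed by 0.90 at day 3 and did not pass (limma adjusted p of at least 0.2715). At single days 0% of all genes passed in limma, although 1426 genes at day 1, 2194 at day 3 and 591 at day 28 had an unadjusted p under 0.05. The share of genes whose arms did not overlap at all was 0.369% at day 1, 0.894% at day 3 and 0.389% at day 28. With the probes used no member was among them, though the arms of the other Ldha probe did not overlap at day 1. The all-days count of 386 genes was itself unstable. It ran from 0 to 939 when 1 array was left out, moved by more than 1.5 times for 27 of 34 arrays, and was 0 without 1 of 4 arrays: replicates 3 and 5 of carbon black at day 3, replicate 3 of carbon black at day 28, and replicate 4 of the controls at day 28.

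Time after instillation made no difference that passed in vehicle-treated hearts. For the 6 genes, control means at day 28 minus day 1 lay between -0.40 for Mpc1 and 0.21 for Ldhb. Mpc1 averaged 2.92 ± 0.36 at day 28 and 3.32 ± 0.34 at day 1 (SD, n = 6 each) (limma adjusted p = 0.9999). At day 3 minus day 1 the 6 differences lay between -0.31 for Pdha1 and 0.03 for Slc16a1, and at day 28 minus day 3 between -0.31 for Mpc1 and 0.33 for Ldhb. In these comparisons 0% of all genes passed in limma, with 404 genes at day 3 against day 1, 234 at day 28 against day 1 and 877 at day 28 against day 3 at an unadjusted p under 0.05. The difference of the exposure effect between days likewise passed for none of the 6 (limma adjusted p = 0.9999 for each).

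A wider list of 34 genes around lactate and pyruvate was followed in the same fit, of which 33 were on the array and 30 passed the filter on dim probes. Over all days 0 of 30 passed in limma, against 1.95% of all genes, and 2 had an unadjusted p under 0.05. Of the 30, 19 were higher and 11 lower, with a median difference of 0.07 (29 higher and a median of 0.42 with median centring, which moved all genes by 0.19), against 50.4% of all genes higher and a median of 0.00. The 7 genes of the malate-aspartate shuttle, which carries reducing equivalents from cytosolic NADH into mitochondria, were all higher, with a median of 0.30 that ran from 0.15 with place on the slide as a block to 0.61 with median centring among settings in which all 7 stayed higher. With slide as a fixed block 6 of 7 were higher (median 0.099), Got1 being the exception, and without the 3 control arrays of high airway score 4 of 7 were higher (median 0.13). Leaving out 1 array left 7 or 6 of 7 higher, Mdh2 being the exception. Slc25a12, the aspartate-glutamate carrier of this shuttle in heart and brain, averaged 1.49 ± 0.37 (SD, n = 16) in carbon black hearts and 0.79 ± 0.80 (SD, n = 18) in control hearts, a difference of 0.69 ± 0.21 (limma adjusted p = 0.0712) that did not pass. It was as low as 0.31 ± 0.17 with Agilent's processed signals (adjusted p = 0.686), 0.42 ± 0.30 with place on the slide as a block (adjusted p = 0.781) and 0.45 ± 0.19 without the 3 control arrays of high airway score (adjusted p = 0.28). It passed without background correction, with median centring, in the authors' deposited table and without the 5 arrays of low atrial score (adjusted p between 0.0368 and 0.0428), and also when control replicate 2 of any day, control replicate 3 of day 3 or control replicate 6 of day 1 was left out. Mdh1, the cytosolic malate dehydrogenase, averaged 3.91 ± 0.41 in carbon black hearts and 3.54 ± 0.57 in control hearts and differed by 0.37 ± 0.17 (adjusted p = 0.236).

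**Figure D5:**
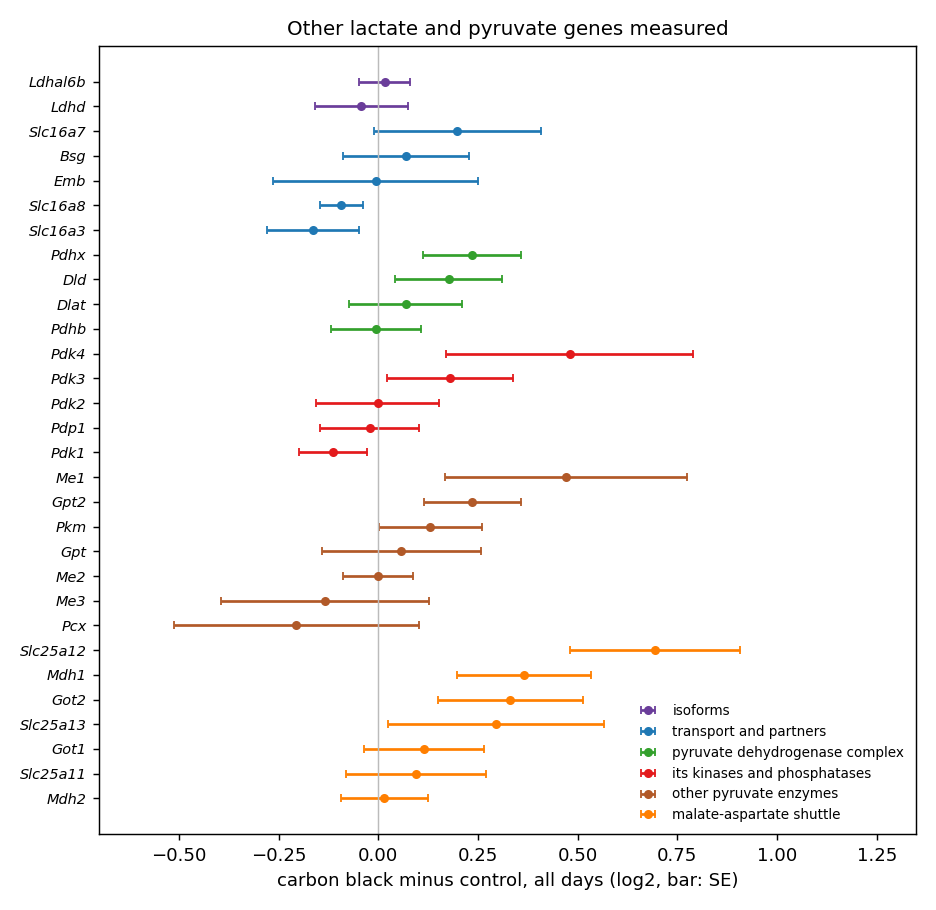
Carbon black minus control over all days in log2 ratio (horizontal axis, bars are SE) for the 30 measured genes of the wider list, coloured by group. The 7 shuttle genes lie at or above 0, with Slc25a12 at 0.69, and none of the 30 passed the test.

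The other groups of the list were mixed in direction. Among subunits of the pyruvate dehydrogenase complex, 3 of 4 were higher, with Pdhx, which anchors the E3 subunit, at 0.24 ± 0.12 (adjusted p = 0.308) and Dld, the E3 subunit itself, at 0.18 ± 0.13 (adjusted p = 0.53). Of 5 kinases and phosphatases of the complex, 2 were higher. Pdk4, a kinase that inhibits pyruvate dehydrogenase and is induced by fasting and fatty acids, differed by 0.48 ± 0.31 (adjusted p = 0.434) with SDs of 1.00 in both arms, and Pdk1 by -0.11 ± 0.09 (adjusted p = 0.523). Of 5 transporters and partners, 2 were higher, with Slc16a3, the transporter MCT4 of glycolytic cells, at -0.16 ± 0.12 (adjusted p = 0.487) and Slc16a8 at -0.09 ± 0.05 (adjusted p = 0.373). Of the other pyruvate enzymes, 4 of 7 were higher, among them Gpt2, a mitochondrial alanine transaminase, at 0.24 ± 0.12 (adjusted p = 0.306) and malic enzyme Me1 at 0.47 ± 0.30 (adjusted p = 0.434). The dehydrogenase isoforms gave -0.04 ± 0.12 (adjusted p = 0.897) for Ldhd, the D-lactate dehydrogenase, and 0.02 ± 0.06 (adjusted p = 0.933) for Ldhal6b. Slc16a8 was well above background on 27 of the 34 arrays and Ldhal6b on 17, so dim signal limits both values.

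Against the reference, 21 of the 30 genes were called higher in control hearts and 6 lower, where 46% and 37.9% of all genes were. All 7 shuttle genes and all 4 subunit genes of the dehydrogenase complex were higher. Pdk4 had a control heart ratio of 5.95 ± 0.21 (SE), or 61.8-fold over the reference. Slc16a3 had a ratio of -1.92 ± 0.08, or 0.264-fold, while Slc16a1 of the same transporter family lay above the reference with loess scaling.

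The genes most like each member were ranked by the correlation of deviations from the group mean over the 34 arrays, among 8503 named genes above background on all arrays. For Ldhb these were Ak1, a cytosolic adenylate kinase, at r = 0.952, Pptc7, a mitochondrial phosphatase, at 0.934, Spryd4 at 0.923, Pacsin3 at 0.922 and Cog8 at 0.921. For Mpc2 they were Yars2, the mitochondrial tyrosyl-tRNA synthetase, at 0.954, Mrpl47 of the mitochondrial ribosome at 0.933 and Ndufaf1, an assembly factor of complex I, at 0.923. For Mpc1 they were Bckdhb at 0.911, Opa1 at 0.884 and Hadhb at 0.877, all of them genes for mitochondrial proteins. For Pdha1 they were Idh3b of the citric acid cycle at 0.883, Yars2 at 0.881 and Ndufaf1 at 0.880. For Slc16a1 they were Tomm70a at 0.867, Pmpcb at 0.853 and Ube2g1 at 0.850, and for Ldha Taf13 at 0.900, Agpat3 at 0.881 and Chtop at 0.874. The members themselves were most alike in Mpc2 and Pdha1 (r = 0.846) and in Ldha and Pdha1 (r = 0.702). All Ldha correlations include control day 3 replicate 1, the lowest of the 34 arrays for Ldha at -2.85 and for Pdha1 at 0.86. The other Ldha probe read -0.63 on that array, and the weight of the array in these correlations was not tested. All points of such a correlation share the array's scaling, slide and tissue section, so they are descriptive.

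Markers of cell types in the section moved with several of these genes. In bulk RNA, fewer cells of a type and less RNA per cell cannot be told apart. Of the 8 ventricular cardiomyocyte markers, 8 were higher in carbon black hearts over all days with a median of 0.34, and 1 passed, cardiac troponin I (Tnni3) at 0.82 ± 0.22 (limma adjusted p = 0.0472). With place on the slide as a block, 5 of the 8 were higher (median 0.22), and without the 3 control arrays of high airway score 6 of the 8 (also 0.22). No gene, Tnni3 included, passed with slide, scan day or place as a fixed block. Their score, the mean over markers of the deviation from each marker's median over the arrays, ran from -1.0 to 0.91 with a mean of 0.07 in carbon black hearts, against -1.04 to 0.35 with a mean of -0.29 in control hearts. Over the 34 arrays it correlated at 0.682 with Ldhb and at -0.04 with Ldha. Of the adipocyte markers, 6 of 7 were measured and 0 passed. Their score ran from -4.62 to 1.16 in carbon black hearts, against -4.48 to 1.43 in control hearts, and correlated at -0.790 with Slc16a1, -0.701 with Mpc2 and -0.588 with Ldhb. The 6 atrial markers correlated at -0.694 with Slc16a1, with scores from -4.55 to 0.63 in carbon black hearts, against -4.42 to 0.48 in control hearts. Of 6 airway markers, genes for secreted airway and surfactant proteins, 4 were measured and 0 passed. Their score ran from -0.26 to 1.12 with a mean of 0.16 in carbon black hearts, against -0.18 to 4.10 with a mean of 0.47 in control hearts. It correlated at -0.526 with Mpc2, -0.494 with Pdha1, -0.474 with Ldha and -0.448 with Ldhb over the 34 arrays. Over the 31 arrays without control day 3 replicates 1, 5 and 6 these were -0.375, -0.162, -0.125 and -0.118, and that of Mpc1 was -0.483, against 0.00369 over all arrays. Skeletal muscle and lymphocyte markers correlated with Ldhb at 0.503 and -0.511, and fibroblast and macrophage markers with Mpc1 at -0.591 and -0.601. The liver score, with means of 0.33 in carbon black hearts and 0.92 in control hearts, correlated with Ldhb at -0.31. The part of these cell types in the gene differences was not tested. Without the 5 arrays of low atrial score, the all-days difference was 1.04 ± 0.23 for Ldhb and 0.37 ± 0.11 (adjusted p = 0.0575) for Slc16a1. Without control day 3 replicates 4, 5 and 6, it was 0.75 ± 0.23 for Ldhb and 0.33 ± 0.14 (adjusted p = 0.257) for Slc16a1. Control day 1 replicates 1, 3, 4 and 6, with liver scores of 1.76 to 2.51, were kept in that fit.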

How the data were processed

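Expression was measured in 34 hearts on two-colour Agilent mouse arrays from 200 ng of RNA each, per the labels' protocols. The deposited scanner files give spot and background intensity per colour, read with Feature Extraction 10.1.1.1 per the file headers, which name build mm8. The authors also deposited a log2 ratio table. Its values correlated at 0.995 to 0.998 with loess-normalised ratios of the same arrays made without background correction, and its column medians ran from -0.055 to -0.034. These gave its direction and centring, while a correlation cannot fix its scale.

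Normexp with an offset of 50 corrected the median intensities for background, and loess then scaled each array (limma 3.58.1, run in R 4.3.3 with version 1.17.8 of data.table). Flagged spots (0.363%) were left out and spots of a probe averaged. Probes were kept if a share of 0.5 or more of any group's arrays had a heart signal well above background, with 3 missing values at most. The probe of highest mean signal stood for a gene, giving 19798 genes, 12347 of them named through RefSeq accessions. The 6 group means were fitted with lmFit and eBayes (28 residual degrees of freedom), with Benjamini-Hochberg adjustment over all genes and a threshold of 0.05. The all-days effect weights the 3 days equally. All 6 members are given in each comparison. From the wider list, the genes named are those past the threshold and up to 2 of smallest p per group. The most similar genes are 5 for Ldhb and 3 for each other member. Members and lists were chosen with earlier results of these data known. Alternatives covered background correction, scaling, the dim-probe filter, probe choice, slide, scan day, place on the slide and arrays left out; leaving out the arrays of high airway score was chosen after seeing the data. The fit was also run on simulated data with residuals shuffled over arrays. Shuffling removes any tie of exposure to place, slide or tissue section, so that run does not bear on such effects in the calls. For arrays, their number limits the precision. Promoters came from RefSeq (GRCm38.p6). Plots used python 3.11.15 and matplotlib 3.10.9.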

Additional observations from a re-analysis of the deposited data

Results flagged for a closer look

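Among 42 pairs of a group and a measure (the 6 genes and Ldhb minus Ldha in 6 groups), 4 held an array far from the rest of its group by Dixon's criterion, where chance flags about 1 in 20 groups. Mpc1 was 3.62 in carbon black day 3 replicate 2, with the next value at 3.02. Mpc2 was 3.28 in control day 28 replicate 2, with the next at 2.60. Pdha1 was 3.52 in control day 1 replicate 2, with the next at 2.64. These 3 arrays are among the 5 of low atrial marker score, with scores of -2.43, -4.18 and -4.42, and the part of the section's makeup in these values was not tested. Ldhb minus Ldha was 3.83 in carbon black day 3 replicate 4, with the next at 5.39. On that array Ldhb was the lowest of the carbon black arm, at 3.48, and Ldha the highest, at -0.36, and the other Ldha probe was also the highest of the arm, at -0.33.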

How the results depend on the processing

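The Ldhb difference over all days kept its direction under all 13 other settings, and the 35 reversals of other results were of differences that did not pass. For Ldha over all days, the difference was -0.10 with the mean of all probes, -0.00337 with scan day as a block, -0.052 with place on the slide as a block and -0.21 with its other probe. For Slc16a1 it passed at 0.69 with median centring and at 0.65 with probe A_51_P397363. For Mpc1 it was 0.021 with Agilent's processed signals, 0.25 with median centring, 0.14 with the mean of all probes, 0.026 with place as a block and 0.41 with its other probe. For Pdha1 it was -0.00219 with the mean of all probes and -0.11 with its other probe. At day 1, median centring gave 0.29 for Ldha, 0.17 for Mpc1, 0.46 for Mpc2 and 0.35 for Pdha1. Also at day 1, the other Mpc1 probe gave 0.32, Mpc2 was 0.041 without background correction and 0.013 in the authors' deposited table, and Pdha1 was 0.000272 without background correction and 0.079 without the 5 arrays of low atrial score. At day 3, Mpc1 was 0.052 with Agilent's signals, 0.28 with median centring, 0.15 with the mean of all probes, 0.023 with place as a block, 0.11 without the 3 control arrays of high liver score and 0.48 with its other probe, and the other Pdha1 probe gave -0.11. Without the 3 control arrays of high airway score, a setting chosen after seeing the data, the difference over all days was -0.092 for Ldha and -0.023 for Pdha1, and at day 3 it was -0.00067 for Ldha, -0.13 for Mpc2 and -0.13 for Pdha1, and 0.25 for Ldhb. At day 28, Ldha was -0.11 with the mean of all probes and -0.29 with its other probe, and the other Pdha1 probe gave -0.089.

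Of the 5 members other than Ldhb, 0 passed over all days under each of these settings, with the exception of Slc16a1 under median centring or with probe A_51_P397363. Counted with Ldhb, which was chosen on its rise in this comparison so that its call is no result, 1 member (Ldhb) was past the threshold with loess scaling, 2 with median centring (Ldhb and Slc16a1), and 0 with Agilent's signals, no filter, the mean of all probes, slide, scan day or place as a fixed block, and without the 3 arrays of high liver or of high airway score. For the wider list, 0 in the main setting, it was 1 without background correction, 3 with median centring, 1 in the authors' deposited table and 1 without the 5 arrays of low atrial score. Over all genes, 386 became 1485 without background correction, 1497 in the authors' deposited table, 1375 with median centring (1374 higher and 1 lower), 148 with no filter, 132 with the mean of all probes, 0 with Agilent's signals or with slide, scan day or place as a fixed block, 1026 without the 5 arrays, 1 without the 3 arrays of high liver score and 4 without the 3 of high airway score. The cause was not tested. The split of calls, 263 higher and 123 lower, was 821 and 676 in the authors' deposited table.

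Leaving out each array in turn gave 0 to 939 genes, 0 to 1 members (0 for 24 of the 34 arrays, otherwise Ldhb) and 0 to 1 genes of the wider list past the threshold over all days. It gave -0.11 to 0.088 for Ldha over all days, -0.12 to 0.050 for Mpc2 and -0.18 to 0.074 for Pdha1 at day 1, and -0.063 to 0.54 for Ldha, -0.012 to 0.31 for Mpc2 and -0.058 to 0.43 for Pdha1 at day 3. At day 28 it gave -0.032 to 0.14 for Ldha and -0.016 to 0.19 for Mpc1. By replicate number, no paired analysis was possible, because the numbers follow accession order and pair no hearts. Arrays that share a slide were compared within slides and with slide as a fixed block (15 residual degrees of freedom). In the comparison within slides the arms also differed in place. Among the member probes, dim signal limits Slc16a1 probe A_52_P245119, and the others were well above background on all arrays.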
